A study of Mus musculus with 23 samples.

Results

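The genes described here are 36 genes of glucose breakdown, lactate handling and the response to low oxygen, followed through mouse B-cell lymphoma lines and tumour-free mouse spleens on 1-colour Agilent expression arrays. They were listed by name from their known roles and not by their measured values. All 36 had a probe whose RefSeq accession named the gene, among 18217 genes with a probe. All 36 also passed the filter on dim probes, which asked for a signal well above background in at least 6 of the 22 samples, and so belong to the 13743 genes tested. Where several probes of a gene passed, the probe with the highest mean signal stood for it. Of the 36 genes, 33 were well above background in all 22 samples. The exceptions were Hk3 in line 9, Ldhb in line 1 and Car9 in line 7. No spot was saturated.

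Every animal and line was on a C57BL/6 x 129 background and carried a knockout of Cd3e, a CD3 component that T-cell receptors need, so none of the 3 groups is wild type for that gene. The first group holds 9 B-cell lymphoma lines, labelled as Atm knockout and Cd3e knockout, that were derived from tumour-bearing spleens and grown in suspension in RPMI1640 with serum, 2-ME, pyruvate and glutamine. The design text counts 10 lines, while the sample titles give 9 names. The second holds 6 tumour-free spleens of Atm knockout, Cd3e knockout mice, all female. The third holds 7 spleens of Atm wild-type, Cd3e knockout mice, 4 male and 3 female. Atm is a kinase that responds to DNA double-strand breaks. The labels used here give no ages and no sex for the lines. A line is a culture of tumour cells and a spleen is a tissue of many cell types, so tumour origin, culture and loss of the other spleen cells cannot be told apart in any comparison of lines with spleens.

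Glycolysis splits glucose into pyruvate in the cytosol. Pyruvate is then burned in mitochondria or reduced to lactate, which monocarboxylate carriers export. Several steps are made by families of isozymes that differ in tissue and in control, and dividing lymphocytes are known to raise glucose uptake and lactate release. In low oxygen the prolyl hydroxylases of the Egln family stop marking HIF-1 alpha for destruction, and the stabilised factor binds DNA with its partner Arnt at sites that often hold the letters ACGTG, and switches on many glycolytic genes together with genes of vessel growth, mitophagy and pH control.

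Levels below are log2 signals relative to the 75th percentile of the array, so a level of 0 is the signal of that percentile and a difference of 1 is a doubling. They compare samples for the same probe and not probes with each other. Atm itself had levels of -4.38 to -2.77 in the lines (median -3.11), -2.69 to -2.07 in Atm knockout spleens (median -2.42) and -0.67 to 0.00 in Atm wild-type spleens (median -0.14), so all 15 samples labelled as knockout lay below all 7 labelled as wild type. The 7 B-cell markers were present in every group, with summed linear levels of 287 to 512 in the lines, 302 to 433 in Atm knockout spleens and 314 to 465 in Atm wild-type spleens. Such a sum weighs bright probes most. Singly, 3 of the 7 were called higher in the lines than in Atm knockout spleens and 1 lower. Their differences ran from -1.21 to 0.91, and 57.1% were called, beside 70.4% of all genes. Markers of most other spleen cells were far lower in the lines. The 8 neutrophil markers summed to 0.0423 to 1.48 in the lines, against 239 to 766 in Atm knockout and 206 to 964 in Atm wild-type spleens, and 7 of the 8 were not well above background in most lines. The 7 macrophage and monocyte markers summed to 17.3 in line 9 and to at most 1.22 in the other lines, against 43.0 to 72.6 in Atm knockout spleens. The T-cell markers did not follow: they summed to 2.15 to 29.8 in the lines (median 17.4), against 11.2 to 16.8 in Atm knockout spleens, with 3 of 7 higher and 3 lower. That list includes Cd3e, labelled as knocked out in every group. Its probe was still well above background in every sample. The levels of Cd3e were -3.30 to -1.22 in the lines, -4.65 to -3.86 in Atm knockout and -4.63 to -3.96 in Atm wild-type spleens. What that signal stems from was not tested. Markers of dividing cells summed to 82.4 to 250 in the lines, 24.4 to 64.3 in Atm knockout spleens and 14.7 to 50.7 in Atm wild-type spleens. In bulk samples such as these, fewer cells of a type and less RNA per cell cannot be told apart.

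Some samples stand apart and bear on the values below. The arrays of line 8 carry the same title but differed as much as arrays of different lines do: the SD of their log2 difference over the 13743 genes was 1.03 and 2089 genes differed by more than 2-fold, against an SD of 0.947 to 1.36 over 43 other pairs of lines. Line 8 is their mean here, and both arrays are given where line 8 is the highest or lowest line of a range described or where they were far apart. Lines 4 and 5 were closer to each other (SD 0.709) than any of those 43 pairs, and they were hybridised on the same slide; the part of the slide was not tested. Arrays of different lines that shared slide 1 (lines 7, 8 and 9) differed with an SD of 1.03 to 1.15. Among the Atm wild-type spleens, spleen 2 had the highest summed neutrophil level (964, against 206 to 416 in the other 6) and the highest level of dividing-cell markers (50.7, against 14.7 to 29.5). It was also the highest Atm wild-type spleen for 21 of the 36 genes.

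**Figure D1:**
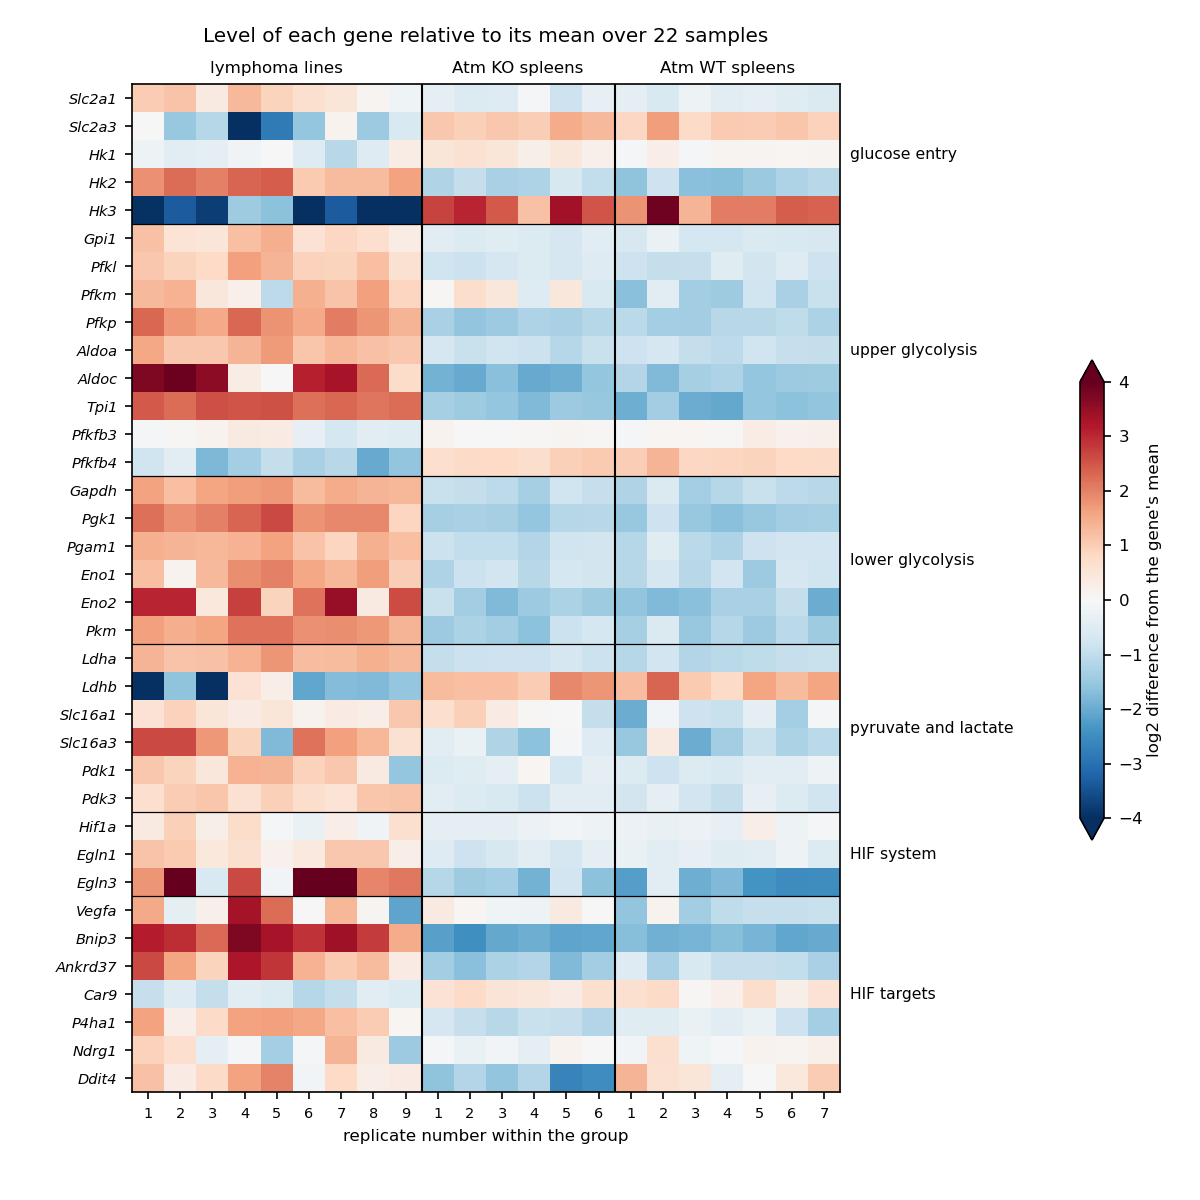
Log2 level of each of the 36 genes (rows, grouped by role) in each sample (columns: 9 lymphoma lines, 6 Atm KO spleens, 7 Atm WT spleens), coloured by its difference from the gene's own mean over the 22 samples, with colours saturating at 4 in either direction. Most genes of glycolysis are red in every line and blue in every spleen, while Slc2a3, Hk3, Pfkfb4, Ldhb and Car9 run the other way.

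Most of the glycolytic chain was expressed at higher levels in the lymphoma lines than in spleens of either Atm genotype. Against Atm knockout spleens, 25 of the 36 genes were higher, 6 were lower and 5 did not pass the test (limma, 22 samples in 3 groups, Benjamini-Hochberg over all 13743 genes, threshold 0.05). The share called was 86.1%, where the background over all genes tested was 70.4% (41.5% higher and 28.9% lower). The median difference of the 36 genes was 1.86, against 0.18 for all genes. The lines lay wholly above the Atm knockout spleens for 21 genes and wholly below them for 5, where 24.1% and 16.8% of all genes did so. Against Atm wild-type spleens, 27 genes were higher, 6 lower and 3 not called. That is 91.7% called, with a background of 71.3% (40.4% higher and 30.9% lower), and a median difference of 1.73 against 0.14 for all genes. In that comparison the groups did not overlap for 21 genes above and 5 below, with backgrounds of 23.9% and 17.9%. The comparisons share the 9 lines, so they are not independent of each other. Scaling each array to its median instead moved the difference of all genes against Atm knockout spleens up by 0.59 and the calls to 30 higher and 5 lower, with 61.4% and 18.9% of all genes called. Against Atm wild-type spleens it gave 28 higher and 5 lower, with 60.2% and 19.9% of all genes. Against Atm knockout spleens the median of the 36 genes lay 1.68 above that of all genes, 1.42 above with quantile normalization and 1.41 above with normexp background correction.

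**Figure D2:**
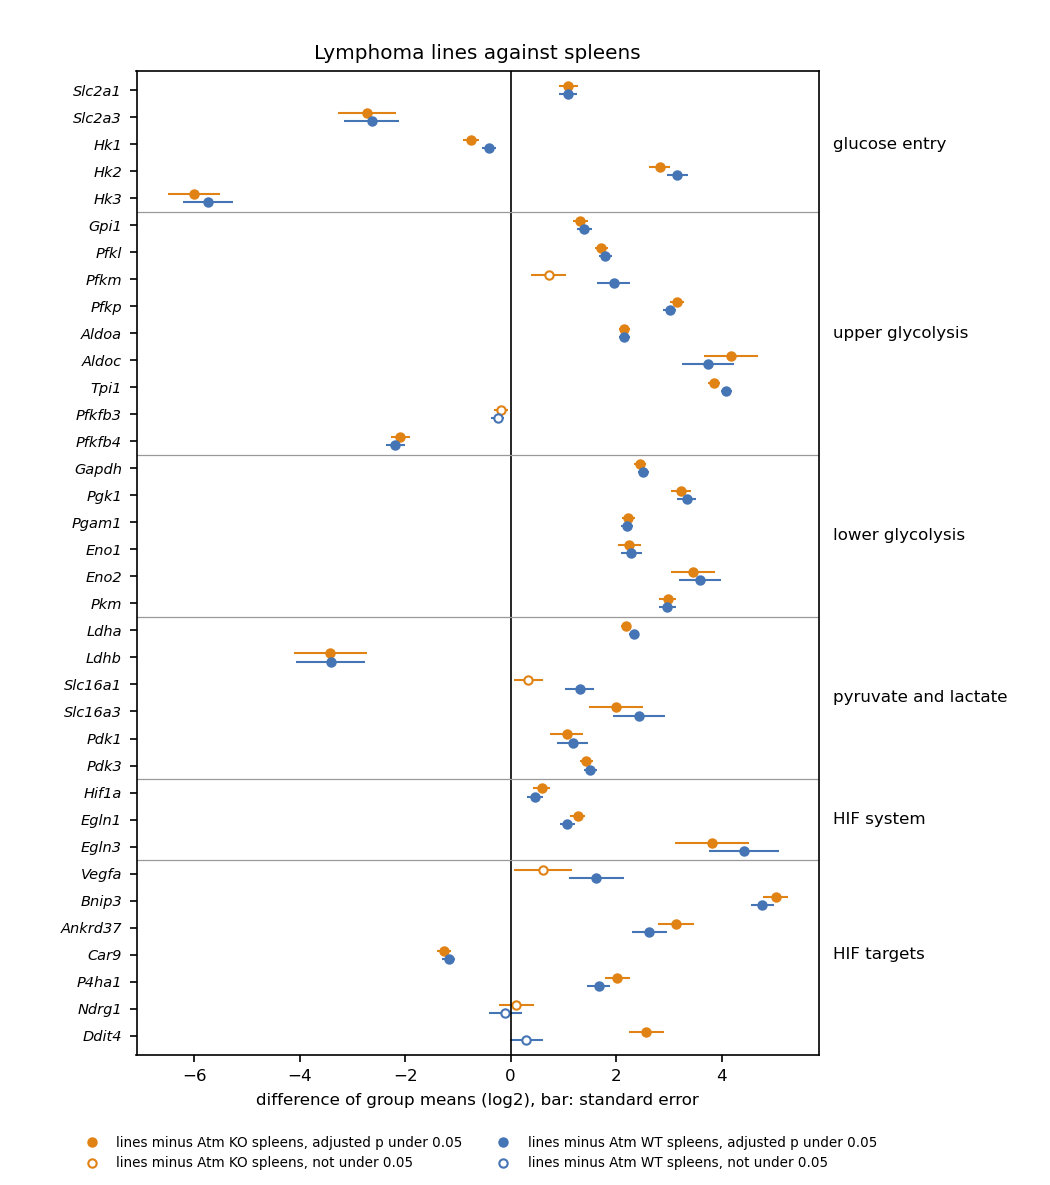
Difference of group means (log2, x axis) between the 9 lymphoma lines and the 6 Atm KO spleens (orange) or the 7 Atm WT spleens (blue) for each gene, with its standard error as a bar. Filled points have an adjusted p under 0.05 by limma; the 6 genes of lower glycolysis all sit above 2, and Hk3, Ldhb, Slc2a3 and Pfkfb4 lie furthest to the left.

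Glucose enters the cell through transporters and is trapped by hexokinases, and here the members of each family went different ways. Hk2, the inducible hexokinase bound to mitochondria, had levels of 4.15 to 5.51 in the lines (median 4.91), 1.81 to 2.48 in Atm knockout spleens (median 2.00) and 1.39 to 2.26 in Atm wild-type spleens (median 1.62). Every line lay above every spleen. The difference was 2.82 ± 0.20 against Atm knockout spleens (SE; 7.08-fold, limma adjusted p = 6.86e-11) and 3.16 ± 0.20 against Atm wild-type spleens. Slc2a1, the widely expressed glucose transporter GLUT1, ran from 3.14 to 4.61 in the lines (median 3.93), 2.48 to 3.24 in Atm knockout spleens (median 2.83) and 2.69 to 3.08 in Atm wild-type spleens (median 2.87). It was higher by 1.09 ± 0.18 (limma adjusted p = 1.80e-05) against Atm knockout spleens, although line 9, the lowest line at 3.14, fell within their range.

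Hk3, a hexokinase abundant in myeloid cells, had the largest fall of the 36 genes. Its levels were -6.34 to -2.60 in the lines (median -4.97), -0.02 to 2.16 in Atm knockout spleens (median 1.40) and 0.18 to 2.68 in Atm wild-type spleens (median 0.85), with no overlap. The difference was -6.00 ± 0.50 against Atm knockout spleens (limma adjusted p = 6.37e-10; at least 61.7-fold lower with line 9, which was not well above background, set at its bound) and -5.74 ± 0.48 against Atm wild-type spleens. Slc2a3, the high-affinity transporter GLUT3, had levels of -3.87 to 1.57 in the lines (median 0.00), 2.41 to 2.91 in Atm knockout spleens (median 2.52) and 2.22 to 3.11 in Atm wild-type spleens (median 2.45). Every line lay below every spleen, by 2.73 ± 0.55 on average against Atm knockout spleens (SE; limma adjusted p = 1.43e-04), and lines 4 and 5 were lowest at -3.87 and -1.37. Hk1, the hexokinase of most tissues, differed less, by -0.75 ± 0.15 against Atm knockout spleens (limma adjusted p = 1.21e-04) and -0.41 ± 0.14 against Atm wild-type spleens (limma adjusted p = 0.0131). With median scaling those differences were -0.16 and 0.16, neither of which passed, and the second was also lost with normexp, with slide as a block and against female spleens alone (limma adjusted p = 0.0611 to 0.229). All 8 neutrophil markers and all 7 macrophage and monocyte markers were lower in the lines, with medians of -12.4 and -10.1 against Atm knockout spleens; their part in the falls of Hk3 and Slc2a3 was not tested. Line 9, with the highest macrophage and monocyte sum of the lines, had the lowest Hk3 signal, which was not well above background there.

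Upper glycolysis turns glucose 6-phosphate into triose phosphates. Of its 9 genes, 6 were higher in the lines than in Atm knockout spleens, 1 was lower and 2 were not called. The share called was 77.8%, beside 70.4% of all genes. Tpi1, triose phosphate isomerase, had levels of 7.12 to 7.54 in the lines (median 7.28), 3.22 to 3.63 in Atm knockout spleens (median 3.48) and 2.92 to 3.57 in Atm wild-type spleens (median 3.33). The lowest line was line 8, with 6.98 on its first array and 7.26 on the repeat. The lines varied little and all lay far above the spleens, by 3.86 ± 0.11 (SE; 14.5-fold, limma adjusted p = 8.94e-18) against Atm knockout and 4.09 ± 0.10 against Atm wild-type spleens. Aldoa, the ubiquitous aldolase, was higher by 2.16 ± 0.10 against Atm knockout spleens, and Gpi1, glucose phosphate isomerase, by 1.32 ± 0.14, both without overlap. Aldoc, the aldolase best known from brain, was higher by 4.17 ± 0.52 (18.0-fold, limma adjusted p = 2.88e-07), again with every line above every spleen. Its levels were 0.90 to 4.81 in the lines (median 4.00), -1.11 to -0.66 in Atm knockout spleens (median -1.03) and -0.87 to -0.27 in Atm wild-type spleens (median -0.52). Lines 4, 5 and 9 were the low ones at 1.19, 0.90 and 1.63, and the other 6 lay at 3.17 or above.

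Phosphofructokinase commits sugar to glycolysis and is built from 3 kinds of subunit. Pfkp, the platelet type, had levels of 3.73 to 4.67 in the lines (median 4.13), 0.79 to 1.23 in Atm knockout spleens (median 1.07) and 0.97 to 1.34 in Atm wild-type spleens (median 1.24). The difference of 3.14 ± 0.13 (8.84-fold, limma adjusted p = 7.59e-15) had no overlap behind it, and another Pfkp probe gave 1.71. Pfkl, the liver type, was higher by 1.72 ± 0.13. Pfkm, the muscle type, had levels of -0.40 to 2.27 in the lines (median 1.78), 0.03 to 1.35 in Atm knockout spleens (median 0.90) and -1.02 to 0.18 in Atm wild-type spleens (median -0.64). The highest was line 8, at 2.09 and 2.45 on its arrays. The difference was 0.72 ± 0.33 against Atm knockout spleens (limma adjusted p = 0.0573, which misses the threshold) and 1.95 ± 0.32 against Atm wild-type spleens (limma adjusted p = 1.12e-05). Without line 5, the lowest line, the first of these was 0.96 and passed (limma adjusted p = 0.00227); over all alternatives the adjusted p was 0.00110 to 0.144.

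Pfkfb3 and Pfkfb4, bifunctional enzymes that make and remove fructose 2,6-bisphosphate, the activator of phosphofructokinase, did not rise. Pfkfb4 had levels of 0.39 to 1.96 in the lines (median 1.11), 3.10 to 3.47 in Atm knockout spleens (median 3.19) and 3.18 to 3.76 in Atm wild-type spleens (median 3.27). Every line lay below every spleen, line 8 being lowest with 0.43 and 0.35 on its arrays, and the difference was -2.09 ± 0.18 against Atm knockout spleens (limma adjusted p = 1.48e-09). Pfkfb3 differed by -0.18 ± 0.14 (limma adjusted p = 0.242), its 3 probes ranged from -0.18 to 0.42, and median scaling turned its sign to 0.40 (limma adjusted p = 0.0295, with 0.00241 to 0.955 over the alternatives). With quantile normalization it passed as lower, by 0.46 against Atm knockout spleens (limma adjusted p = 0.00241). Of the other family members, Pfkfb1 was higher by 1.24 ± 0.17 (limma adjusted p = 1.56e-06) and Pfkfb2 lower by 0.96 ± 0.18 (SE; limma adjusted p = 5.61e-05), both named after their values were seen.

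Lower glycolysis, from glyceraldehyde 3-phosphate to pyruvate, was higher in the lines throughout. All 6 genes rose in both comparisons, by 2.23 to 3.45 against Atm knockout spleens, and for all 6 the lines lay above every spleen of either genotype. Of all genes, 41.5% were called higher in the lines than in Atm knockout spleens, and for 24.1% the lines lay wholly above them. Gapdh, often used as a constant reference gene, had levels of 7.34 to 7.87 in the lines (median 7.62), 4.82 to 5.34 in Atm knockout spleens (median 5.21) and 4.79 to 5.55 in Atm wild-type spleens (median 5.03), a difference of 2.45 ± 0.12 (5.48-fold, limma adjusted p = 3.93e-14). Pgk1, which makes the first ATP of the chain, had levels of 6.37 to 8.15 in the lines (median 7.41), 3.95 to 4.41 in Atm knockout spleens (median 4.19) and 3.84 to 4.68 in Atm wild-type spleens (median 3.99). It rose by 3.23 ± 0.19 (9.39-fold, limma adjusted p = 1.73e-12), and its other probe gave the same value to 2 decimals. Pgam1, Eno1 and Pkm rose by 2.23 ± 0.12, 2.25 ± 0.21 and 2.97 ± 0.17. Pkm had 1 probe, which cannot separate its M1 and M2 splice forms. Eno2, the enolase of neurons, ran from -2.80 to 0.32 in the lines (median -0.53), -4.93 to -4.03 in Atm knockout spleens (median -4.57) and -5.14 to -4.11 in Atm wild-type spleens (median -4.74). Its difference was 3.45 ± 0.41 (limma adjusted p = 1.80e-07); in line 8 the first array read -4.29, within the spleens, and the repeat array -1.32. Several of these genes have near-identical processed copies in the mouse genome, and signal from such copies was not separated.

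Pyruvate and lactate genes were split by family. Ldha, the lactate dehydrogenase subunit that favours lactate, had levels of 7.21 to 7.81 in the lines (median 7.34), 5.09 to 5.38 in Atm knockout spleens (median 5.20) and 4.88 to 5.27 in Atm wild-type spleens (median 5.05). All lines lay above all spleens, by 2.18 ± 0.09 (4.53-fold, limma adjusted p = 4.94e-15) and 2.34 ± 0.09. Ldhb, the heart-type subunit, had levels of -7.13 to -0.53 in the lines (median -2.82), -0.08 to 0.82 in Atm knockout spleens (median 0.15) and -0.34 to 1.22 in Atm wild-type spleens (median 0.17). Every line lay below every spleen, by 3.42 ± 0.69 on average against Atm knockout spleens (SE, limma adjusted p = 1.42e-04). That fall was at least 10.1-fold with line 1, which was not well above background, set at its bound. Lines 4 and 5 were nearest to the spleens at -0.53 and -0.82 and line 1 furthest at -7.13.

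The lactate exporter Slc16a3, MCT4, was higher by 2.00 ± 0.51 against Atm knockout spleens (limma adjusted p = 0.00146) and 2.44 ± 0.49 against Atm wild-type spleens. Its levels were 1.20 to 5.61 in the lines (median 4.58), 1.33 to 2.89 in Atm knockout spleens (median 2.48) and 0.98 to 3.30 in Atm wild-type spleens (median 1.68), and line 5, at 1.20, was the only line below the highest spleen. Slc16a1, the bidirectional carrier MCT1, had levels of 2.73 to 3.67 in the lines (median 3.07), 1.63 to 3.53 in Atm knockout spleens (median 2.77) and 0.62 to 2.50 in Atm wild-type spleens (median 1.77). It differed by 0.34 ± 0.28 against Atm knockout spleens (limma adjusted p = 0.294), which with median scaling became 0.92 and passed (limma adjusted p = 0.00511), and by 1.31 ± 0.27 against Atm wild-type spleens (limma adjusted p = 1.76e-04). The kinases that switch off pyruvate dehydrogenase were both higher against Atm knockout spleens, Pdk1 by 1.06 ± 0.31 (limma adjusted p = 0.00445) and Pdk3 by 1.43 ± 0.12 (limma adjusted p = 6.86e-10). Another Pdk1 probe, well above background in all 22 samples, gave 2.14. Line 9 was the lowest for Pdk1 at -0.33, below every spleen, while the other 8 lines lay between 1.58 and 2.61 and above every spleen.

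Differences between isozymes within the same array show whether family members shifted unequally, whatever the scaling of the arrays to the percentile or the median. Of 12 pairs, 10 shifted against Atm knockout spleens and 8 against Atm wild-type spleens (exact two-sided permutation tests over samples, Benjamini-Hochberg over the 24 tests). For 6 pairs the lines did not overlap either spleen group. Most single genes differed between lines and spleens (70.4% of all genes called against Atm knockout and 71.3% against Atm wild-type spleens). No share over other pairs of genes was computed, so these counts of pairs have no background to be set against. Hk2 minus Hk1 was 1.02 to 2.37 in the lines (median 2.09), -2.06 to -1.38 in Atm knockout spleens (median -1.81) and -2.12 to -1.40 in Atm wild-type spleens (median -1.86). The shift towards Hk2 was 3.57 on the log2 scale (11.9-fold) against either spleen group, with exact adjusted p-values of 7.99e-04 and 6.99e-04; the other 5 pairs without overlap carry the same p-values, since a complete separation gives the smallest p the numbers of samples allow. Ldhb minus Ldha shifted by -5.60 against Atm knockout spleens (towards Ldha), Hk3 minus Hk1 by -5.26, Slc2a1 minus Slc2a3 by 3.82, Pfkfb4 minus Pfkfb3 by -1.91 and Pfkp minus Pfkl by 1.43.

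The other pairs overlapped with at least 1 spleen group. Egln3 minus Egln1 shifted by 2.55 against Atm knockout spleens (exact permutation adjusted p = 0.00685). Aldoc minus Aldoa shifted by 2.02 (exact permutation adjusted p = 0.0320), Slc16a3 minus Slc16a1 by 1.67 (exact permutation adjusted p = 0.0358) and Pfkm minus Pfkl by -0.99 (exact permutation adjusted p = 0.0410). The last 3 calls were lost when certain single lines were left out: Pfkm minus Pfkl without line 1, 3, 4, 5 or 7, Aldoc minus Aldoa without line 1 or 7, and Slc16a3 minus Slc16a1 without line 1, 2, 3, 6 or 7, with adjusted p-values of 0.0508 to 0.0684 by the same exact test. Pfkm minus Pfkl was also lost with quantile normalization (exact permutation adjusted p = 0.0547) and with lines 4 and 5 averaged (exact permutation adjusted p = 0.0615). Eno2 minus Eno1 shifted by 1.20 (exact permutation adjusted p = 0.0973) and Pdk3 minus Pdk1 by 0.38 (exact permutation adjusted p = 0.531), neither of which passed. Eno2 minus Eno1 did pass with quantile normalization (1.72, exact permutation adjusted p = 0.0192), with only the repeat array of line 8 (1.35, exact permutation adjusted p = 0.0456) and without line 8 (1.46, exact permutation adjusted p = 0.0440). Against Atm wild-type spleens, Pfkm minus Pfkl moved by 0.15 (exact permutation adjusted p = 0.721) and Slc16a3 minus Slc16a1 by 1.13 (exact permutation adjusted p = 0.0841), so these did not pass there, and neither did Eno2 minus Eno1 or Pdk3 minus Pdk1. Slc16a3 minus Slc16a1 passed there without line 5 (1.51, exact permutation adjusted p = 0.00466) and with lines 4 and 5 averaged (1.33, exact permutation adjusted p = 0.0265). Eno2 minus Eno1 passed under 4 alternatives and without line 3, 5 or 8 (exact permutation adjusted p = 0.0113 to 0.0467). Aldoc minus Aldoa passed there with a shift of 1.59 (exact permutation adjusted p = 0.0358), a call lost without line 1, 2, 3, 6 or 7 and with normexp (1.09, exact permutation adjusted p = 0.155).

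**Figure D3:**
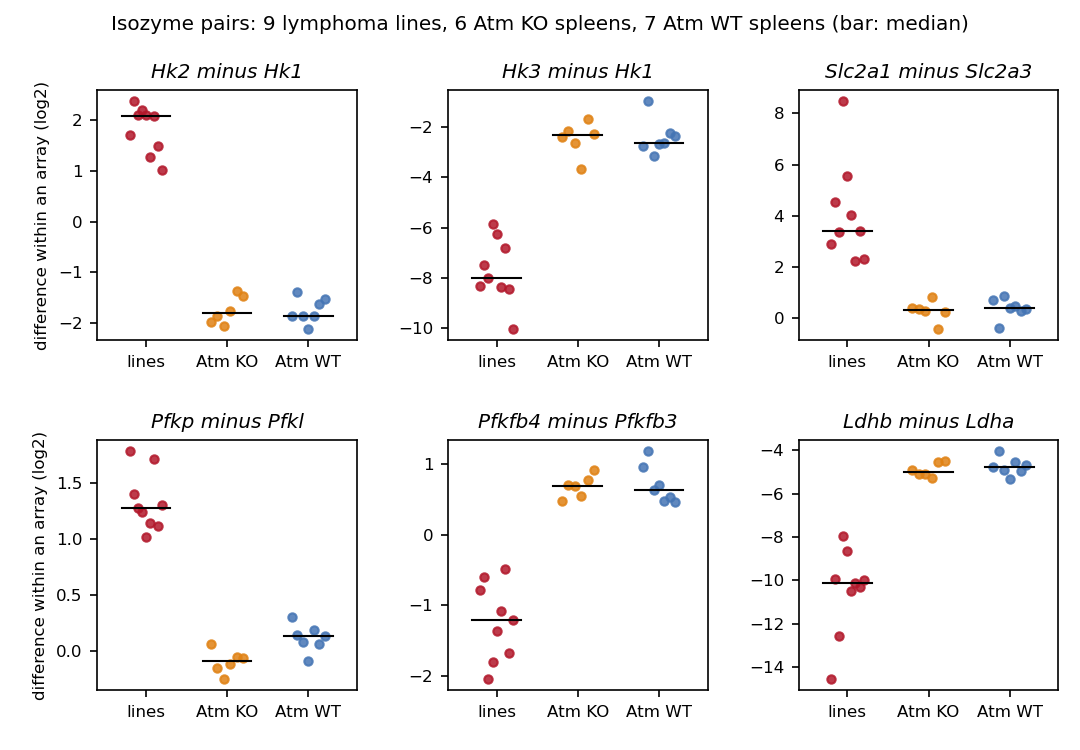
Difference between the isozymes of a pair within each array (log2, y axis) for the 6 pairs in which the 9 lymphoma lines do not overlap the 6 Atm KO or the 7 Atm WT spleens; points are samples and bars medians. Lines shift towards Hk2, Slc2a1 and Pfkp and away from Hk3, Pfkfb4 and Ldhb, while both spleen groups lie close together.

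The oxygen-sensing genes and the targets of HIF-1 were not uniformly higher. Hif1a, the oxygen-regulated subunit, whose control is mainly on the protein, had levels of 0.71 to 1.91 in the lines (median 1.24), 0.58 to 0.85 in Atm knockout spleens (median 0.67) and 0.64 to 1.24 in Atm wild-type spleens (median 0.74). The groups overlapped and the differences were small, 0.59 ± 0.16 (limma adjusted p = 0.00202) and 0.47 ± 0.15 (limma adjusted p = 0.00804). The second call was lost with quantile normalization (0.29, limma adjusted p = 0.0732) and against female Atm wild-type spleens alone (0.31, limma adjusted p = 0.221). Within slide 6, which holds line 6, the difference from the Atm knockout spleen there was -0.14. Egln1, the main prolyl hydroxylase of most cells, was higher by 1.27 ± 0.15 against Atm knockout spleens without overlap (limma adjusted p = 1.08e-07). Of the 7 target genes, 4 were higher than in Atm knockout spleens, 1 was lower and 2 were not called, a share called of 71.4% beside 70.4% of all genes.

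Bnip3, a mitochondrial protein that promotes mitophagy and a textbook HIF target, had the largest rise of the 36 genes. Its levels were 3.20 to 5.47 in the lines (median 4.68), -0.73 to -0.24 in Atm knockout spleens (median -0.36) and -0.37 to 0.02 in Atm wild-type spleens (median -0.15). Every line lay far above every spleen, by 5.02 ± 0.23 (32.5-fold, limma adjusted p = 3.03e-14) against Atm knockout and 4.77 ± 0.22 against Atm wild-type spleens. Ankrd37, an ankyrin-repeat protein induced by HIF, had levels of 2.72 to 5.65 in the lines (median 3.80), 0.63 to 1.23 in Atm knockout spleens (median 1.01) and 1.12 to 1.88 in Atm wild-type spleens (median 1.47), a difference of 3.14 ± 0.34 (8.81-fold, limma adjusted p = 4.18e-08) with no overlap. P4ha1, a collagen prolyl hydroxylase, was higher by 2.02 ± 0.23, again without overlap. Egln3, the hydroxylase that HIF itself induces, differed by 3.82 ± 0.70 (14.1-fold, limma adjusted p = 4.82e-05) against Atm knockout spleens and 4.42 ± 0.67 against Atm wild-type spleens, with lines spread over 5.50 log2 units.

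Among the 7 genes listed here as HIF targets, Car9, Vegfa and Ndrg1 did not pass as higher against Atm knockout spleens. With median scaling, which moved all genes up by 0.59, Vegfa (1.20, limma adjusted p = 0.0419) and Ndrg1 (0.70, limma adjusted p = 0.0382) did pass. Car9, a carbonic anhydrase of the cell surface and a common hypoxia marker, was at -5.40 to -4.70 in the lines (median -4.81), -3.92 to -3.50 in Atm knockout spleens (median -3.70) and -4.20 to -3.48 in Atm wild-type spleens (median -3.67). The highest line was line 8, at -4.49 and -4.90 on its arrays. Every line lay below every spleen, by 1.27 ± 0.13 (SE; limma adjusted p = 3.01e-08), but with normexp background correction the difference was -0.05 and did not pass. Vegfa, the growth factor for vessels, had levels of -3.47 to 1.99 in the lines (median -1.14), -1.55 to -0.99 in Atm knockout spleens (median -1.31) and -2.92 to -1.22 in Atm wild-type spleens (median -2.28). The lines lay on both sides of the spleens, the difference of 0.61 ± 0.55 against Atm knockout spleens did not pass (limma adjusted p = 0.327), and its 4 probes ranged from -0.80 to 0.61. Against Atm wild-type spleens it was 1.63 ± 0.53 (limma adjusted p = 0.00865), and 0.85 with the probes averaged (limma adjusted p = 0.0992, the highest over the alternatives); the call was also lost with normexp and against female spleens alone (limma adjusted p = 0.0814 and 0.0723). Ndrg1, a stress-response gene, differed by 0.11 ± 0.33 (limma adjusted p = 0.782) and -0.10 ± 0.31 (limma adjusted p = 0.786).

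The 250 bases before the annotated start of each gene were read from RefSeq (GRCm38.p6) for the HIF core ACGTG on either strand, which appears as CACGT when it lies on the opposite strand. A CACGTG counts as overlapping matches on both strands and is also the E-box bound by other factors. Of the 36 genes, 34 had an entry, with 48 starts in all. A match was found in 25 of those 48 windows (52.1%), against 16.6% of the 32851 windows of all genes. The letters contain a CG pair, and windows of the listed genes held a median of 14 such pairs against 6 for all; among the 9646 windows with 14 or more, 25.0% had a match. Shown 5′ to 3′ on the gene's strand are the genes whose levels carry the results on oxygen response: the strongest riser Bnip3, the target Ankrd37, the variable Egln3, Ddit4, which differed between the spleen genotypes, and the glycolytic genes Pgk1 and Ldha. Capitals mark ACGTG or CACGT.
Bnip3, chr7:138909507-138909756, strand -: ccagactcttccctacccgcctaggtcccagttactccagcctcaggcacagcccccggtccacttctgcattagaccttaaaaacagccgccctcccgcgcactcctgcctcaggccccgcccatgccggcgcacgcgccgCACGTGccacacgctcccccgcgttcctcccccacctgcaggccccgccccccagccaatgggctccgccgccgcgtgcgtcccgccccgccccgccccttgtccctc
Ankrd37, chr8:45999851-46000100, strand -: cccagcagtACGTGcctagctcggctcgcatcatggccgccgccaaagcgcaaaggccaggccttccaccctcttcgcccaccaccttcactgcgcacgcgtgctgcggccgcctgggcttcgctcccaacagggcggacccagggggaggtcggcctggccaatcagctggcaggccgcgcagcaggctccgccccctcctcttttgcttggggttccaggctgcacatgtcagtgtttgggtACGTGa
Egln3, chr12:54203875-54204124, strand -: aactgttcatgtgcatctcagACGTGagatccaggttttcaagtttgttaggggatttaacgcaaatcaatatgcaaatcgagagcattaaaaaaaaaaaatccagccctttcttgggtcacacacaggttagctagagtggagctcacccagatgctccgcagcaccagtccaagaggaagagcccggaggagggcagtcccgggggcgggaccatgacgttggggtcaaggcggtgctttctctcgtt
Ddit4, chr10:59951771-59952020, strand -: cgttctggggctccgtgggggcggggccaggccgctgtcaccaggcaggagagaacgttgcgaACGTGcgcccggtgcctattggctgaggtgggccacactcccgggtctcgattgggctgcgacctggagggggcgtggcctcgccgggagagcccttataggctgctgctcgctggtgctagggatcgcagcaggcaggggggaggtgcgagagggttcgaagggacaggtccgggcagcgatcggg
Pgk1, chrX:106186850-106187099, strand +: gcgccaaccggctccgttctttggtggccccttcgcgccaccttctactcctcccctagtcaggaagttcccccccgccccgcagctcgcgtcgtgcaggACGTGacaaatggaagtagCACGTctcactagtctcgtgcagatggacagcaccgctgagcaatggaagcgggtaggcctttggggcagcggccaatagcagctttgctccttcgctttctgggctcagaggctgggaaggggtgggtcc
Ldha, chr7:46845554-46845803, strand +: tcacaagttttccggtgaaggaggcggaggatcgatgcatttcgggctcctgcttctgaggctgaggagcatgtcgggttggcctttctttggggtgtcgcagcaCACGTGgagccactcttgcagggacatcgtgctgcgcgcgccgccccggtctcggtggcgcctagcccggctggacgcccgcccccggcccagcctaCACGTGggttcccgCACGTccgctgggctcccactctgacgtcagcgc
Bnip3 has a CACGTG that begins 108 bases before the start. Ankrd37 has an ACGTG 6 bases and another 241 bases before it, Pgk1 has matches on opposite strands at 150 and 131 bases, and this window of Ldha holds 5 matches. Egln3 and Ddit4 have 1 match each, at 229 and 187 bases. No match was found in the windows of Aldoc, Tpi1, Gapdh, Eno2 or Pfkp, which were also higher in every line, nor of Ldhb, which was lower in every line, and none of this bears on whether the factor acts on them. Car9, which was lower, has a match 18 bases before its start.

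The spread between lines was unequal among the 36 genes. The SD among the 9 lines had a median of 0.50 over the 36 genes, against 0.44 over all genes, and it exceeded the SD of both spleen groups for 29 of the 36, where 80.4% of all genes did so. Of the 36 genes, 7 lay above the 90th percentile of all genes for SD in the lines. They were Ldhb (SD 2.05), Egln3 (2.03), Slc2a3 (1.66), Vegfa (1.61), Aldoc (1.57), Slc16a3 (1.36) and Hk3 (1.24). The lowest values of Ldhb (line 1) and Hk3 (line 9) were not well above background, so these SDs include dim readings. At the other end Tpi1, Ldha, Gapdh, Pgam1 and Aldoa had SDs of 0.17, 0.18, 0.19, 0.21 and 0.23, all below the 25th percentile.

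Egln3 fell into high and low lines. It was at 2.91 in line 6, 2.77 in line 7 and 2.69 in line 2, at 0.67, 0.13, -0.03 and -0.21 in lines 4, 9, 8 and 1, and at -2.08 and -2.59 in lines 5 and 3. The lowest 2 lines were just above the highest Atm knockout spleen, at -2.74. The arrays of line 8 were far apart, -2.82 on the first and 2.76 on the repeat, a difference of 5.58 that was larger in size than that of 99.5% of all genes. With only the first array the level of line 8 would lie within the range of the spleens. The same pair of arrays differed by 2.97 for Eno2, 2.21 for Vegfa, 1.62 for Ndrg1 and 1.48 for Ankrd37, each higher on the repeat array, and by -0.98 for Ldhb. The count of calls over the 36 genes against Atm knockout spleens was 25 higher and 6 lower with either array alone and with line 8 left out, and 26 and 6 with the arrays as separate lines or with lines 4 and 5 averaged.

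Line 9 was the lowest line for 13 of the 36 genes and line 4 the highest for 11, followed by line 5 for 10. Line 9, which also had the highest macrophage and monocyte marker sum of the lines, was lowest for Bnip3 (3.20), Ankrd37 (2.72), Pgk1 (6.37), Pdk1 (-0.33), Vegfa (-3.47), P4ha1 (0.86), Ndrg1 (-0.04), Slc2a1, Hk3, Gpi1, Pfkl, Pfkp and Pkm, and its Egln3 (0.13) was the median of the lines. Line 4 was highest for Bnip3 (5.47), Ankrd37 (5.65), Vegfa (1.99) and Pdk1 (2.61). Lines 4 and 5, which resemble each other over all genes and share a slide, had high Vegfa (1.99 and 0.88) with low Aldoc (1.19 and 0.90) and low Slc2a3. Line 5 combined the highest Ldha (7.81) and Pgk1 (8.15) with the lowest Slc16a3 (1.20) and low Ndrg1 (0.04). With 1 culture and 1 array for each line apart from line 8, a difference between lines cannot be told apart from a difference between cultures, and cell density or oxygen in the flasks is not given in the sources used here.

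**Figure D4:**
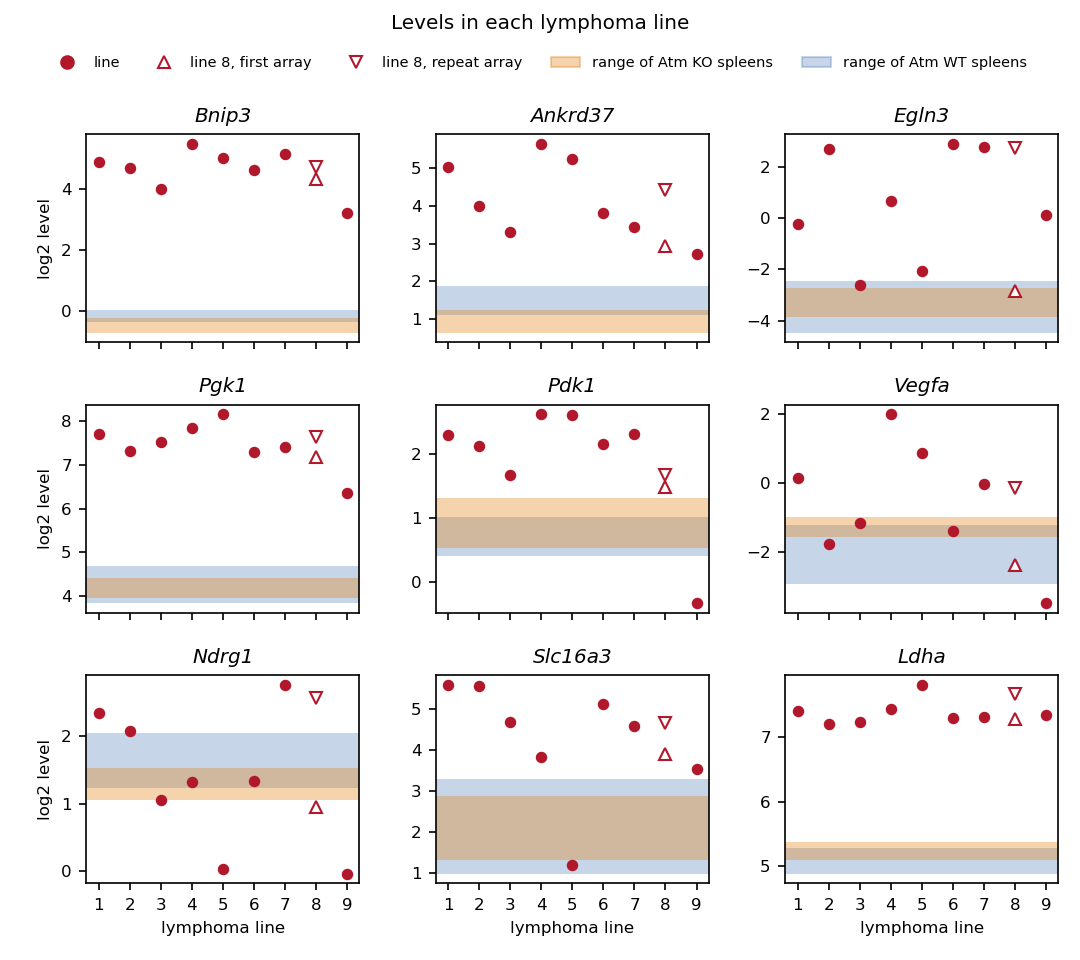
Log2 level (y axis) of 9 genes in each lymphoma line (x axis), with the arrays of line 8 as separate open triangles and the range of the 6 Atm KO spleens (orange) and 7 Atm WT spleens (blue) as bands. Bnip3, Ankrd37, Pgk1 and Ldha lie above the bands in every line, and line 9 is lowest in 6 of the 9 panels. With line 8 as the mean of its arrays, Egln3 spans -2.59 to 2.91 and Vegfa -3.47 to 1.99. The first array of line 8 has Egln3 lower still, at -2.82.

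Few of these genes differed between the spleen genotypes. Between Atm knockout and Atm wild-type spleens, with a term for sex, 1 of the 36 genes was called (2.78%, background 3.82%). All Atm knockout spleens were female, so each difference in this fit sets them against the 3 female Atm wild-type spleens. The 4 male spleens bear only on the estimate of spread. The median difference was 0.04, and -0.05 for all genes. The gene was Ddit4, also called REDD1, an inhibitor of mTORC1 signalling that is induced by low oxygen, DNA damage and glucocorticoids. Its levels were 2.55, 3.00, 2.58, 2.99, 1.50 and 1.67 in the Atm knockout spleens, against 5.52, 4.78, 4.64, 3.77, 4.18, 4.58 and 5.19 in the Atm wild-type spleens. Every Atm knockout spleen lay below every Atm wild-type spleen, where 2.09% of all genes separated in that direction. The difference was -2.26 ± 0.42 (4.80-fold lower, limma adjusted p = 0.0134, with 0.000948 to 0.186 over the alternatives). The lines, at 4.04 to 6.13 (median 4.94), lay above all Atm knockout spleens, by 2.57 ± 0.33 (limma adjusted p = 4.27e-07), and overlapped the Atm wild-type spleens, with a difference of 0.29 ± 0.31 (limma adjusted p = 0.415; 0.86 with median scaling, which passed at limma adjusted p = 0.0136). The call between the spleen genotypes was lost without Atm wild-type spleen 6 (-2.30, limma adjusted p = 0.0595), without spleen 7 (-1.99, limma adjusted p = 0.0682) and with normexp background correction (-2.02, limma adjusted p = 0.186).

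Pfkm, Egln3 and Vegfa were each about 2-fold higher in Atm knockout spleens but did not pass. Pfkm differed by 1.08 ± 0.32 (limma adjusted p = 0.0891), Egln3 by 1.10 ± 0.33 (limma adjusted p = 0.0907) and Vegfa by 0.98 ± 0.30 (limma adjusted p = 0.0923). Vegfa was at -1.55 to -0.99 in the 6 Atm knockout spleens (median -1.31), -2.28 to -2.25 in the 3 female Atm wild-type spleens and -2.92 to -1.22 in the 4 male ones. The only Atm wild-type spleen inside the range of the Atm knockout spleens was spleen 2, at -1.22. Egln3 was at -3.87 to -2.74 in Atm knockout spleens (median -3.36), against -4.48 to -4.38 in female and -4.18 to -2.44 in male Atm wild-type spleens, where spleen 2 was again the highest. Without spleen 2, a male, Egln3 and Vegfa passed (limma adjusted p = 0.0152 and 0.00771). They also did among female spleens alone (limma adjusted p = 0.0310 and 0.0141). Both fits gave the same differences as the main one, 1.10 and 0.98, so only the estimate of spread and the number of samples differed. Over the alternatives the limma adjusted p-values of Egln3 and Vegfa reached 0.631 and 0.685. Neutrophil markers summed to 239 to 766 in Atm knockout spleens (median 560) and 206 to 964 in Atm wild-type spleens (median 388). Spleen 2 was the highest of all 13. None of the 8 markers passed the test between the genotypes, and their median difference was 0.99. Erythroid and dividing-cell markers, none of which passed either, had median differences of 0.86 and 0.71. The part of these markers in the results was not tested. Of the 7 NK-cell markers, 4 were called lower in Atm knockout spleens, where 2.16% of all genes were called lower.

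**Figure D5:**
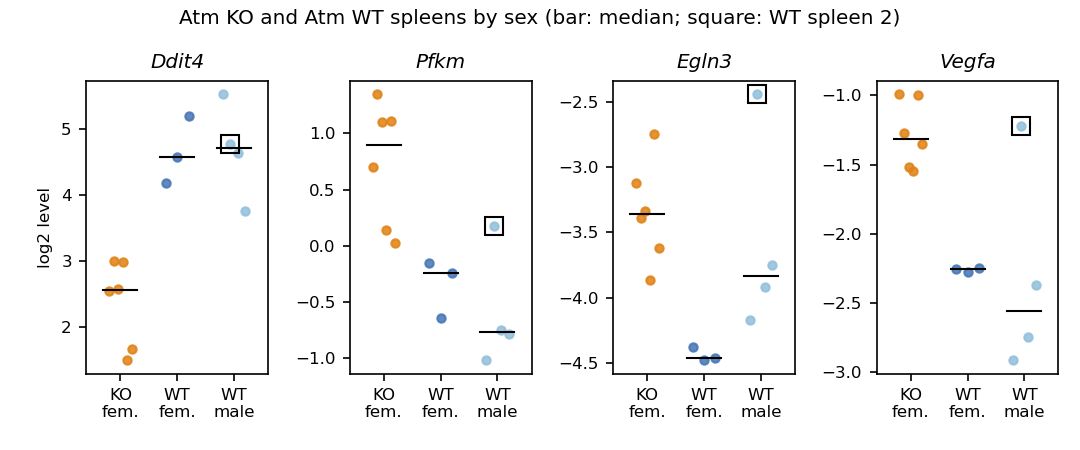
Log2 level (y axis) of Ddit4, Pfkm, Egln3 and Vegfa in each spleen, with the 6 female Atm KO spleens left of the 3 female and 4 male Atm WT spleens; bars are medians and the square marks Atm WT spleen 2. For Ddit4 every Atm KO spleen, all female, lies below every Atm WT spleen of either sex. For Egln3 and Vegfa the boxed spleen lies among or above the Atm KO spleens.

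Further genes of the same pathways, listed by name, moved in both directions. Of 39 other genes of glycolysis, glycogen and pyruvate, 34 were tested, and 16 were higher and 14 lower in the lines than in Atm knockout spleens (88.2% called and median 0.15, beside 70.4% and 0.18 for all genes). Pgm1, which links glycogen to glycolysis, rose by 2.03 ± 0.16. Pygl, liver glycogen phosphorylase, was well above background in 1 line and in all spleens and was at least 738-fold lower in the lines. Slc2a4, the insulin-responsive transporter GLUT4, was at least 40.3-fold lower, Slc16a7, the carrier MCT2, at least 28.1-fold lower and Ldhc, the testis lactate dehydrogenase, at least 10.7-fold lower. These bounds set the brighter group's mean against the lowest signal counted as well above background on each array, where the dim probe's own signal was not higher.

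Of 47 other HIF system and target genes, 39 were tested, and 18 were higher and 11 lower (74.4% called and median 0.37, beside 70.4% and 0.18 for all genes). Stc2, a secreted glycoprotein, was well above background in none of the Atm knockout spleens, and its mean over the lines was at least 228-fold higher. Ak4, a mitochondrial adenylate kinase, was at least 44.8-fold higher. Fam162a, Ero1a, an oxidase of the endoplasmic reticulum, and Angptl4, an inhibitor of lipoprotein lipase, rose by 2.54 ± 0.20, 2.13 ± 0.18 and 1.77 ± 0.44. Selenbp1, a selenium-binding protein, was lower by 5.16 ± 0.79 (SE), and Pdgfb, a growth factor chain, was at least 6.69-fold lower. Epas1, which encodes HIF-2 alpha and was singled out here as the relative of Hif1a, was at -6.79 to -2.64 in the lines (median -4.42), -1.78 to -1.43 in Atm knockout spleens (median -1.53) and -2.43 to -0.95 in Atm wild-type spleens (median -1.67). It was lower in every line than in every spleen, by 3.04 ± 0.47 (SE; limma adjusted p = 6.87e-06), alongside falls of 6 of the 7 stromal and endothelial markers, whose part was not tested. Between the spleen genotypes, 1 of the other 34 glycolytic genes was lower in Atm knockout spleens, Dlat, named after its values were seen. That is 2.94% called, beside 3.82% of all genes.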

How the data were processed

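RNA of 23 samples was hybridised to 1-colour (Cy3) Agilent mouse arrays, and the authors deposited the scanner output with a table of processed values. Per the file headers, spot intensity was extracted with Agilent Feature Extraction 10.7.1.1, and the processed intensity used here is background-subtracted and not scaled between arrays. The deposited value table holds log2 values centred on each probe's median over the arrays. Differences between arrays in it matched the scanner values (correlation of at least 0.999988), so it served as an alternative. Its scaling is not given in the sources used here.

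Control spots and outlier spots were left out, spots of a probe averaged, and log2 intensity taken relative to each array's 75th percentile. The arrays of line 8 were averaged, giving 22 samples. Probes were named through the RefSeq accession in the files; 26690 of 41174 probes had a symbol. Genes were tested with limma 3.58.1 (R 4.3.3): lines and spleens in 3 groups, and 13 spleens with genotype and sex, with Benjamini-Hochberg adjustment over all 13743 genes. Isozyme pairs were compared by exact permutation in Python 3.11.15 with scipy 1.17.1. On simulated data, limma recovered 66% of genes changed by a log2 difference of 1 in the lines against Atm knockout spleens and 39% between spleen genotypes. The simulation gave each gene the same spread in all 3 groups. The real SDs had medians over all genes of 0.44 in the lines, 0.23 in Atm knockout and 0.21 in Atm wild-type spleens. These shares therefore need not hold for the real comparisons. Between 54.9% and 67.7% of an array's spots exceeded background clearly, and the number of arrays limits the precision. Replicates are separate lines or animals.

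Alternatives were median and quantile scaling, normexp background correction, the deposited table, other dim-probe filters, averaged probes, slide as a block and within slides, sex, each array of line 8, lines 4 and 5 averaged, and each sample left out; those on lines 4 and 5, on line 8 as separate lines and on left-out samples were chosen after seeing the data. Normexp used median spot and background signals in place of the planned mean spot signal. Slide 1 holds only lines 7, 8 and 9. The genes, pathway lists and tests were chosen with earlier results of these data known. All 36 genes, Atm, Cd3e and up to 6 other pathway genes in each direction with the largest difference and no overlap were named. Other names are marked. The comparison of the other HIF genes between the spleen genotypes is not reported here.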

Additional observations from a re-analysis of the deposited data

Results flagged for a closer look

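The highest or lowest sample stood far from the rest of its group, relative to the group's whole range, in 11 of the 108 sets of values (36 genes in 3 groups). Chance gives about 1 in 20. In 7 of them Atm wild-type spleen 2 was the highest of the 7 spleens: Slc2a3 at 3.11, Hk3 at 2.68, Gpi1 at 6.79, Pfkfb4 at 3.76, Pgk1 at 4.68, Egln3 at -2.44 and Vegfa at -1.22. The next highest spleens lay at 2.55, 1.23, 6.51, 3.38, 4.18, -3.75 and -2.25 for the same genes. That spleen also had the highest summed neutrophil, erythroid and dividing-cell markers of the 7, and their part in these values was not tested. Line 9 was the lowest line for Pgk1 at 6.37 (next line 7.28) and for Pdk1 at -0.33 (next line 1.58). Line 5 was the highest for Ldha at 7.81 (next line 7.48) and the lowest for Slc16a3 at 1.20 (next line 3.55).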

How the results depend on the processing

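The number of the 36 genes called in the lines stayed at 30 to 35 of 36 under every alternative run, and at 31 to 32 (against Atm knockout spleens) and 33 to 34 (against Atm wild-type spleens) when each sample was left out. By direction the left-out samples gave 25 to 26 higher and 6 lower against Atm knockout spleens, and 27 higher and 6 to 7 lower against Atm wild-type spleens. The share of all genes called moved as well. Against Atm knockout spleens 33.1% were called higher and 18.1% lower with normexp, and 61.4% and 18.9% with median scaling. That share is not given here for female spleens alone, no term for sex, slide as a block or left-out samples. Between spleen genotypes the count of 1 became 0 with normexp (0 lower), where 3 of all genes passed, 3 among female spleens (2 higher) and 6 without a term for sex (3 higher, 3 lower), and 0 to 3 with a spleen left out (0 to 2 higher, 0 to 1 lower). Isozyme pairs passing ranged over 7 to 11 and 7 to 10 with a line left out. Where the reported or the altered value was called, signs reversed for Pfkfb3 against Atm knockout spleens (0.40) and Hk1 against Atm wild-type spleens (0.16) with median scaling, for Hif1a against Atm knockout spleens within slide 6 (-0.14) and for Vegfa against Atm wild-type spleens within slide 3 (-0.54); the causes were not tested. Among differences that were not called, signs also turned within at least 1 slide for Pfkfb3, Slc16a1, Vegfa and Ndrg1 against Atm knockout spleens and for Pfkfb3, Ndrg1 and Ddit4 against Atm wild-type spleens. They turned under other settings for Vegfa (-0.11 with averaged probes), Pfkfb3 and Ndrg1 against Atm knockout spleens, and for Pfkfb3, Ndrg1 and Ddit4 against Atm wild-type spleens. Within the 5 slides that hold lines and spleens, 30 of 31 and 32 of 33 called genes kept their sign on each. No paired analysis was possible because the labels give no number shared between groups. With slide as a block, 26 genes were higher and 6 lower against Atm knockout spleens, and 27 higher and 5 lower against Atm wild-type spleens. Dim probes such as Car9 are limited by signal over background.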
